A study of Mus musculus with 21 samples.

Results

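The cytosolic ribosome of mammals is built from rRNA and a fixed set of proteins, one gene for nearly every protein. The genes described here are the protein-coding genes of the deposited table whose symbol is Rps or Rpl followed by a number and at most one letter a or x, together with Rplp0, Rplp1, Rplp2 and Rpsa. This rule gave 76 genes of the 54532 in the table, 30 of the small subunit and 46 of the large one. The rule used names and gene class only, and no expression value. Core components with other names lie outside it, among them Rps3a1, Fau and the ribosome-bound scaffold Rack1. They are described beside the members.

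Expression was measured by RNA sequencing of bone marrow cells enriched on magnetic beads for c-kit, the receptor that marks blood progenitors, from C57BL/6 mice. The groups were Asxl1-/-Jak2V617F (3 libraries), Jak2V617F (3), Asxl1-/- (2) and WT (3). Asxl1 encodes a chromatin regulator that is often mutated in human myeloid disease, and Jak2V617F is the activating kinase change of the myeloproliferative neoplasms. The sources used here do not give the age of the mice, the promoter or driver of each lesion, the zygosity of Jak2V617F or whether a library is 1 animal or a pool. Spread within a group may therefore be partly technical, and the p-values measure that spread only. Chromatin samples of the same study were not analysed here.

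Ribosomal protein mRNAs are among the most abundant of any cell, and most of them start with a run of pyrimidines, the TOP tract, through which growth signals and Larp1 control their translation together. Proteins made in excess of rRNA are degraded, and a shortage of single proteins frees Rpl5 and Rpl11, which with 5S rRNA bind Mdm2 and stabilise p53. Red cell precursors are known to be the cells most harmed by such a shortage: Diamond-Blackfan anaemia follows loss of 1 copy of genes such as RPS19, and loss of RPS14 accounts for much of the anaemia of the 5q- syndrome in people.

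All 76 members were measured well enough to be tested. Levels are given as CPM, which are counts relative to the library total after TMM scaling for composition. Mean CPM over the 11 libraries had a median of 777.4 across members, with 73 members over 100 CPM. Compared per kilobase of the deposited gene length, the highest were Rplp1, a protein of the stalk that recruits translation factors, with 2688 CPM per kb, then Rplp0, which anchors that stalk, with 1669, and Rps15, near the decoding site, with 1269. The lowest were Rpl24, a large-subunit protein at the subunit interface, with 4.70 CPM per kb, Rps10, a small-subunit protein at the mRNA entry side, with 4.94, and Rpl13a, which also acts in translational silencing in human monocytes, with 33.4.

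Many members have near-identical copies. The table holds 295 rows named as pseudogenes of 59 members. Pseudogene rows held 95.2% of the counts summed over Rps10 and its named copies, 54.7% for Rpl17, 44.6% for Rpl21 and 30.2% for Rps12. The sources used here do not say how reads that match several copies were counted, so values of these 4 members in particular are uncertain. Rpl24 and Rpl13a, with means of 4.84 and 70.5 CPM, lay far below the member median of 777.4 CPM, and no counts lay in pseudogene rows named after them. Only rows so named were summed. Reads of this pair counted in other rows or discarded would not be seen, and this was not tested.

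The annotated starts of members show the TOP tract where the annotation places the start at it. RefSeq promoter windows (GRCm38.p6) matched 56 of the 76 members. A tract was called where the annotated first base is a C that opens an unbroken run of C or T of 5 or more bases, read on the gene's own strand. It was found in 13 of the 56 members, 23.2%, against 3.01% of all 27025 genes with an entry. The sequences below run from 10 bases before the start through the first 20 bases, 5′ to 3′, with the tract in capitals. The first 5 show the tract in members of both subunits, and the last pair shows members named below whose annotated start does not open with one.
Rpl38 (chr11:114668570-114668599, plus strand): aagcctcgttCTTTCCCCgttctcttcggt
Rpl35 (chr2:39005112-39005141, minus strand): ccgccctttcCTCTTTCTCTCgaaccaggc
Rpl28 (chr7:4792955-4792984, plus strand): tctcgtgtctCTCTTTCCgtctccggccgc
Rps6 (chr4:86857348-86857377, minus strand): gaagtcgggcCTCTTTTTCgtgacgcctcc
Rps10 (chr17:27635225-27635254, minus strand): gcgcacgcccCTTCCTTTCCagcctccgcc
Rps28 (chr17:33824543-33824572, minus strand): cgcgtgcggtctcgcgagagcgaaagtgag
Rps12 (chr10:23787190-23787219, minus strand): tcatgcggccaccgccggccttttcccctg
In Rps12 a pyrimidine run lies further along the window, so the absence of a tract by this rule says only that those letters are not at the annotated base. Members with a tract had a median log2 fold change of 0.43 in Jak2V617F over WT and 0.63 in Asxl1-/- over WT. The other matched members had 0.47 and 0.64.

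Across libraries, totals lay between 16198011 and 19196283 counts. Asxl1 was at 93.4 to 100.3 CPM in Asxl1-/-Jak2V617F libraries, against 131.7 to 195.7 in Jak2V617F libraries, and at 89.0 to 97.0 in Asxl1-/- libraries, against 160.9 to 163.7 in WT libraries, so its gene-level reads were lower wherever the labels give the loss. Kit was at 218.6 to 338 CPM in all of them. Y-linked reads were present in both Asxl1-/- libraries and in Jak2V617F 2 and in no other library. Sex and Asxl1 loss alone are thus separated by 1 library only. The 12 granulocyte markers summed to 40840 to 50860 CPM in Asxl1-/-Jak2V617F, 2575 to 5633 in Jak2V617F, 67280 to 68430 in Asxl1-/- and 45110 to 60430 in WT. The 20 erythroid markers summed to 2864 to 4929, 8891 to 10780, 3503 to 4030 and 2308 to 4067 CPM in the same order of groups, and none of the markers in either list was at 0 in any group. In bulk libraries such as these, fewer cells of a type and less RNA per cell cannot be told apart.

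A set of 3 libraries stood apart and bears on every comparison with WT. Rows of the rRNA class held 0.0178% of the counts of Asxl1-/-Jak2V617F 3, 0.0175% of WT 2 and 0.0183% of WT 3, against 0.000491% to 0.000928% in the other 8. One such row, Gm23935, had 1987 to 2111 counts in those 3 libraries and 3 to 17 in the others. No Jak2V617F or Asxl1-/- library was of this kind. Within WT, 71 of the 76 members were lower in the 3-library class than in WT 1, with a median log2 ratio of -0.46, while the median over all tested genes was -0.01. Within Asxl1-/-Jak2V617F, 59 members were lower in replicate 3 than in the other pair, with a median of -0.18, against -0.0046 for all genes. Across members those log2 ratios had a Pearson r of 0.82, against 0.17 over the 16262 tested genes, as a description over genes measured in shared libraries. The labels give no preparation or run for any library. Results that rest on these libraries are therefore given with and without them, and their part in each difference beyond that was not tested.

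Members together took on average the largest share of raw counts in Jak2V617F and the smallest in WT. This share has no TMM scaling, whose factors were 1.048 to 1.063 in Jak2V617F libraries and 0.915 and 0.923 in Asxl1-/- libraries. In the scaled fold changes over WT, given below, the median of members was larger in Asxl1-/- than in Jak2V617F. The share was 6.35%, 6.55% and 5.85% in Asxl1-/-Jak2V617F libraries, 7.19%, 6.78% and 7.49% in Jak2V617F libraries, 7.08% and 6.87% in Asxl1-/- libraries, and 6.14%, 4.53% and 4.53% in WT libraries. The group means were 6.25 ± 0.361% (SD, n = 3), 7.15 ± 0.352% (n = 3), 6.97 ± 0.142% (n = 2) and 5.06 ± 0.930% (n = 3). Both WT libraries of the high rRNA class lay below all others, and WT 1 lay below every Jak2V617F and Asxl1-/- library and within the range of Asxl1-/-Jak2V617F. Without the 3 libraries the mean was 6.45 ± 0.147% in Asxl1-/-Jak2V617F (n = 2), and WT kept 1 library. Since the members were chosen with results known, no test was made of this sum.

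**Figure D1:**
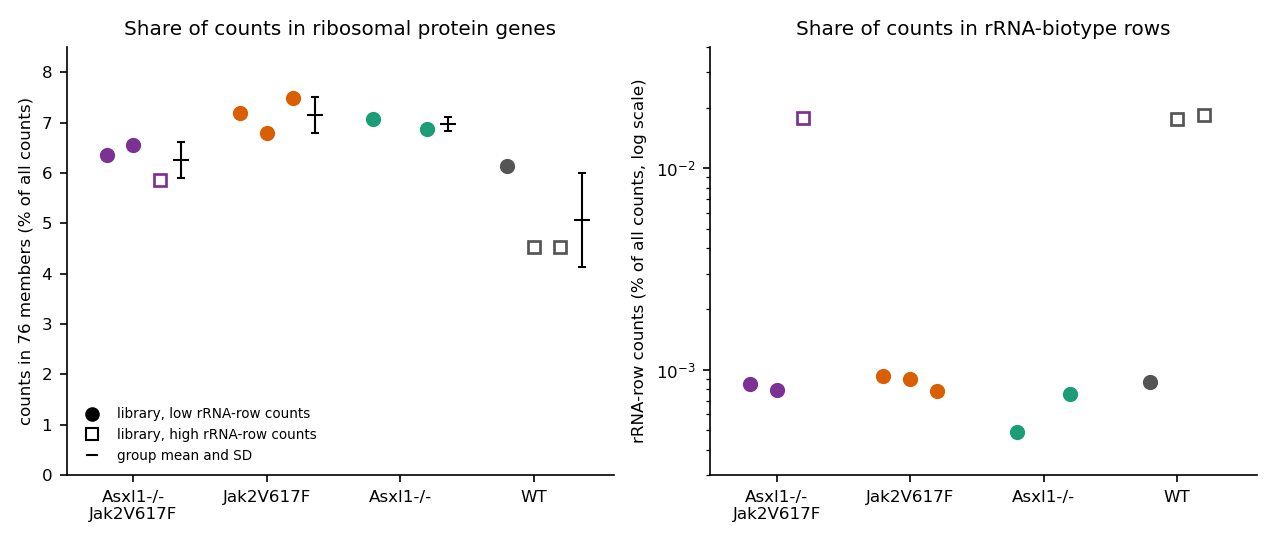
Share of all counts in the 76 members (left, percent, linear axis from 0) and in rRNA-class rows (right, percent, log axis) in each library, by genotype. Filled circles are the 8 libraries of low rRNA-row counts and open squares the 3 of high counts. Bars on the left give the group mean and SD. The open squares, at 5.85%, 4.53% and 4.53%, are the lowest library of Asxl1-/-Jak2V617F and the lowest pair of WT.

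**Figure D2:**
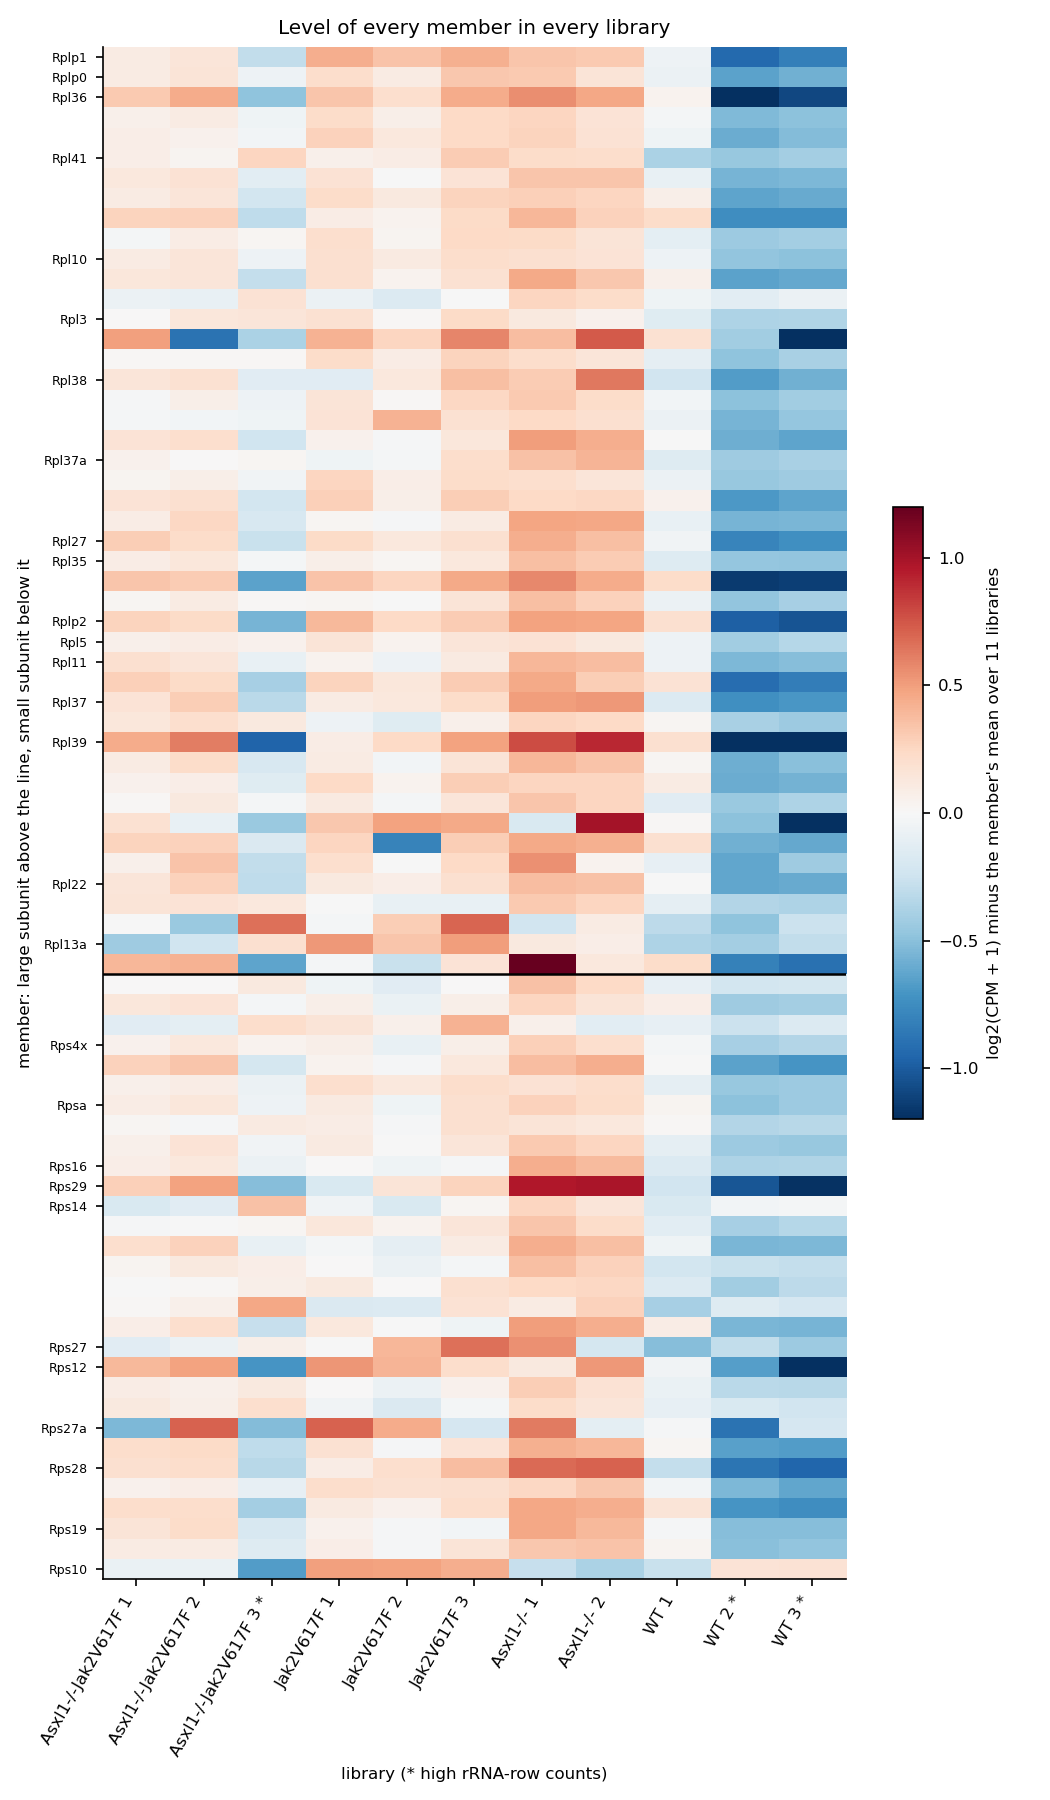
Level of each member (rows, large subunit above the line and small subunit below it, ordered by CPM per kb within each) in each library (columns), as log2(CPM + 1) minus the mean of the member over the 11 libraries. Red is above and blue below that mean, with the colour scale ending at 1.2 in either direction, and asterisks mark the 3 libraries of high rRNA-row counts. Only members chosen by rule or role carry a label. WT 2 and WT 3 are blue for nearly all members, whereas Rps14 and Rps10 depart from the common pattern.

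Jak2V617F against WT asks how the kinase lesion alone stood with the members. In the edgeR quasi-likelihood test, with Benjamini-Hochberg adjustment over all tested genes and a threshold of 0.05, 50 of the 76 members were higher in Jak2V617F and 0 lower. Over all tested genes 24.4% were called higher and 29.2% lower. The median log2 fold change was 0.47 for members and -0.05 for all genes. It was smaller in the 8 libraries left without the high rRNA class, where the median was 0.22 and 19 members were called higher, against 15.3% of all genes. In a fit of all 11 libraries with a term for high rRNA-row counts, 32 were higher, against 20.5% of all genes. Without the high class WT is then 1 library, which the fit assumes to vary like the other groups.

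The members with the largest called rises in Jak2V617F were Rpl36, Rps12, Rplp1, Rps28, Rps29 and Rpl13a. Rplp1 (ENSMUSG00000007892, chr9:61913284-61914542, minus strand, mm10) had 1734, 1621 and 1726 CPM in Jak2V617F libraries, against 1227, 672.8 and 725.3 CPM in WT libraries. Every Jak2V617F library lay above every WT library, also above WT 1. The log2 fold change was 0.95 ± 0.20 (SE, edgeR adjusted p = 0.00221), and without the 3 libraries it was 0.50 (edgeR adjusted p = 0.00232).

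Rpl13a (ENSMUSG00000074129, chr7:45125558-45128761, minus strand) had 98.7, 86.5 and 97.1 CPM in Jak2V617F libraries, against 52.9, 51.3 and 55.5 CPM in WT libraries. The WT libraries were close together here, including both of the high rRNA class. Its log2 fold change was 0.82 ± 0.13 (edgeR adjusted p = 0.000311), and 0.87 without the 3 libraries (edgeR adjusted p = 0.000828). Rps28, a small protein at the mRNA exit side whose human gene is mutated in Diamond-Blackfan anaemia, had 245.4, 265.1 and 298.9 CPM in Jak2V617F libraries, against 189, 125.8 and 119.1 CPM in WT libraries. The groups did not overlap, and its log2 fold change was 0.90 ± 0.19 (edgeR adjusted p = 0.00212), or 0.55 without the 3 libraries (edgeR adjusted p = 0.00576).

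The other 3 of these members lost their call without the 3 libraries. Rpl36, a large-subunit protein, had a log2 fold change of 0.97 ± 0.35 (edgeR adjusted p = 0.0401) and 0.33 without them (edgeR adjusted p = 0.0533). For Rps12 the values were 0.96 ± 0.36 (edgeR adjusted p = 0.047) and 0.47 (edgeR adjusted p = 0.0614), on a gene with many copies. For Rps29, a zinc-binding protein next to the decoding site, they were 0.85 ± 0.30 (edgeR adjusted p = 0.0377) and 0.36 (edgeR adjusted p = 0.136). In each of these 3, both WT libraries of the high rRNA class lay below WT 1, as for Rpl36 with 187.8 and 205.6 CPM, against 452.9 CPM in WT 1.

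Erythroid markers summed higher in every Jak2V617F library than in every WT library, and granulocyte markers lower, with the values given above. The part of that difference in the change of the members was not tested.

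Asxl1-/- against WT asks how loss of Asxl1 alone stood with the members. There 56 of 76 members were higher in Asxl1-/- and 0 lower in the edgeR test, against 11.3% and 11.2% of all tested genes. The median log2 fold change was 0.63 for members and -0.01 for all genes. Without the 3 libraries 13 members were called higher, against 0.895% of all genes, and the median was 0.41. The term for high rRNA-row counts left 48 higher, against 5.01% of all genes. Leaving out Asxl1-/- replicate 1 left 7 calls and leaving out replicate 2 left 27. With a term for the presence of Y-linked reads, 3 calls were left. The share of all genes was not counted for this fit or for the replicate omissions. Jak2V617F 2 is the only library from outside Asxl1-/- that has such reads, so sex and Asxl1 loss can scarcely be told apart in this comparison. Granulocyte markers summed higher in both Asxl1-/- libraries than in any WT library, while the erythroid sums overlapped, and their part in the change was not tested.

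Rps29 (ENSMUSG00000034892, chr12:69157722-69159186, minus strand) had 755.6 and 767.9 CPM in Asxl1-/- libraries, against 330.6, 190 and 170.4 CPM in WT libraries. Both Asxl1-/- libraries were above each of the other 9 libraries of the series. The log2 fold change of Rps29 was 1.72 ± 0.33 (edgeR adjusted p = 0.00825), and 1.24 without the 3 libraries (edgeR adjusted p = 0.0303). Rps28 (ENSMUSG00000067288, chr17:33819027-33824562, minus strand) had 371.4 and 377.5 CPM in Asxl1-/- libraries, against the WT values above. These also were its highest levels in the series. The log2 fold change was 1.37 ± 0.20 (edgeR adjusted p = 0.00276), and 1.02 without the 3 libraries (edgeR adjusted p = 0.0183).

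The next in size were Rpl37, a zinc-finger protein of the large subunit, Rpl38, which in mouse embryos is needed for translation of Hox mRNAs, Rpl27 and Rplp1. Rpl37 had a log2 fold change of 1.02 ± 0.19 (edgeR adjusted p = 0.00581) and 0.71 without the 3 libraries (edgeR adjusted p = 0.0257). Rpl38 had 0.96 ± 0.17 (edgeR adjusted p = 0.00482) and 0.74 (edgeR adjusted p = 0.103). Rpl27 had 0.88 ± 0.22 (edgeR adjusted p = 0.0171) and 0.47 (edgeR adjusted p = 0.0465). Of these, Rpl37 and Rpl27 thus kept their call in the 8 libraries, whereas Rpl38 and Rplp1 did not, Rplp1 having 0.88 ± 0.22 (edgeR adjusted p = 0.0185) and 0.42 (edgeR adjusted p = 0.0535).

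Of the members called higher, 45 were called in both Jak2V617F and Asxl1-/- over WT, and 5 without the 3 libraries. Both comparisons use the same WT libraries, so the count is not independent of them. Over all tested genes 24.4% were called higher in Jak2V617F and 11.3% in Asxl1-/- over WT. The share called in both was not counted, so the overlap of members cannot be set beside it.

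Asxl1-/-Jak2V617F against WT asks how both lesions together stood with the members. In the edgeR test 27 members were higher and 0 lower, against 8.3% and 6.76% of all tested genes, with median log2 fold changes of 0.39 for members and -0.03 for all genes. In the 8 libraries of low rRNA-row counts 0 members were called by edgeR, against 0.239% of all genes called higher and 0.143% lower, and the median was 0.20. The term for high rRNA-row counts gave 34 higher, against 7.02% of all genes. At an unadjusted p under 0.05, 53 members were higher and 0 lower in the fit of 11 libraries. Leaving out WT 1 gave 61 calls, and leaving out Asxl1-/-Jak2V617F 2, WT 2 or WT 3 gave 2 each. The share of all genes was not counted at the unadjusted p or for these omissions. Within the high rRNA class, Asxl1-/-Jak2V617F 3 lay above the mean of WT 2 and WT 3 for 74 of 76 members, with a median log2 ratio of 0.43. Within the other libraries, the mean of Asxl1-/-Jak2V617F 1 and 2 lay above WT 1 for 71 of 76 members, with a median of 0.16. These are ratios of a few libraries, given without a test.

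Among the members with the largest called rises were Rps28, Rpl37, Rpl38, Rpl41 and Rplp0. Rps28 had 263.9, 266.9 and 183.7 CPM in Asxl1-/-Jak2V617F libraries, against 189, 125.8 and 119.1 CPM in WT libraries, and a log2 fold change of 0.72 ± 0.19 (edgeR adjusted p = 0.0308). Asxl1-/-Jak2V617F 3 lay just below WT 1, so the groups overlapped. Rpl41, the smallest ribosomal protein, had 1279, 1235 and 1447 CPM in Asxl1-/-Jak2V617F libraries, against 927.3, 883.2 and 910.4 CPM in WT libraries. Its groups did not overlap, and here the library of high rRNA-row counts was the highest of its group. The log2 fold change of Rpl41 was 0.54 ± 0.09 (edgeR adjusted p = 0.00848), and 0.48 without the 3 libraries (edgeR adjusted p = 0.116).

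Rpl37 had a log2 fold change of 0.57 ± 0.17 (edgeR adjusted p = 0.0475), Rpl38 of 0.55 ± 0.16 (edgeR adjusted p = 0.0384) and Rplp0 of 0.47 ± 0.15 (edgeR adjusted p = 0.0486). These 3 kept a positive value without the 3 libraries, between 0.23 and 0.43, and none was called there.

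**Figure D3:**
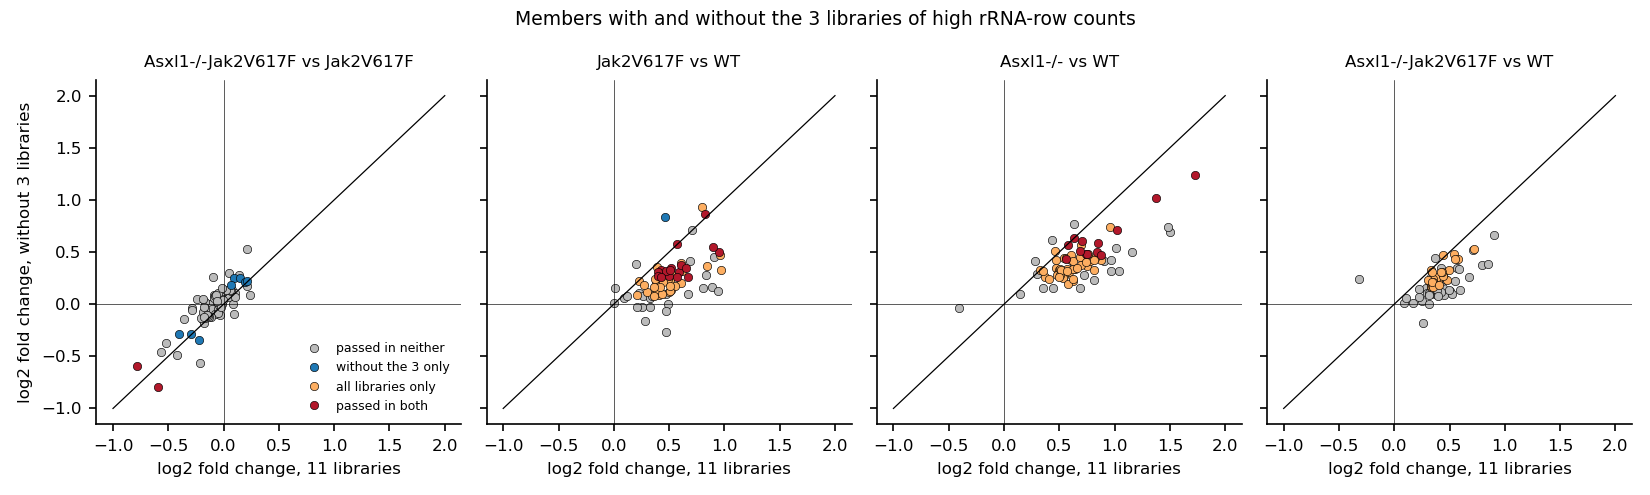
Log2 fold change of each member in the fit of all 11 libraries (horizontal axis) and in the fit without the 3 libraries of high rRNA-row counts (vertical axis), in 4 comparisons. Colours give the fits in which the edgeR adjusted p was under 0.05, and the diagonal marks equal values. In the 3 comparisons with WT most points lie below the diagonal, with medians of 0.47, 0.63 and 0.39 across and 0.22, 0.41 and 0.20 up.

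Asxl1-/-Jak2V617F against Jak2V617F, which adds Asxl1 loss to the kinase lesion, left the members close to level while much of the transcriptome differed. In the edgeR test 0 members were higher and 2 lower, against 24.5% and 19.8% of all tested genes. At an unadjusted p under 0.05, 2 members were higher and 3 lower, with the share of all genes not counted. The median log2 fold change was -0.06 for members and -0.01 for all genes, and the interquartile range of members ran from -0.18 to 0.03. When the 3 libraries were left out, 5 members were higher and 5 lower, against 23.2% and 19.3% of all genes, with a median of 0.01. With the term for high rRNA-row counts 6 were higher and 2 lower, against 24.7% and 19.8%.

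Both called members were lower in Asxl1-/-Jak2V617F. Rpl13a had 50.5, 57.9 and 78.4 CPM in Asxl1-/-Jak2V617F libraries, against 98.7, 86.5 and 97.1 CPM in Jak2V617F libraries. The groups did not overlap, although Asxl1-/-Jak2V617F 3 came near. Its log2 fold change was -0.60 ± 0.13 (edgeR adjusted p = 0.00348), and -0.80 without the 3 libraries (edgeR adjusted p = 0.000176). It was called lower under every alternative tried, with adjusted p between 6.11e-05 and 0.0183. All of these use the gene's own row or its named pseudogene row, so the limit given above holds for each.

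Rps10 had 10.4, 10.4 and 6.53 CPM in Asxl1-/-Jak2V617F libraries, against 15.9, 15.8 and 15.3 CPM in Jak2V617F libraries, without overlap. Its log2 fold change was -0.78 ± 0.20 (edgeR adjusted p = 0.00695). Summed with its pseudogene rows, which hold most of the reads, the fold change was -0.25 and not called (edgeR adjusted p = 0.633).

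Members with known roles differed in how near the groups were. Rplp1 had 1368, 1418 and 1047 CPM in Asxl1-/-Jak2V617F libraries, against 1734, 1621 and 1726 CPM in Jak2V617F libraries. Its groups did not overlap, without a call in the main fit (log2 fold change -0.41, edgeR adjusted p = 0.125). Leaving out the 3 libraries of high rRNA-row counts, it was at -0.28. Rps19, the gene most often mutated in Diamond-Blackfan anaemia, had 814.9, 851.1 and 639.9 CPM in Asxl1-/-Jak2V617F libraries and 758, 722.4 and 715.6 CPM in Jak2V617F libraries, with overlap. The overlap came from Asxl1-/-Jak2V617F 3, of the high rRNA class, and the other pair lay above every Jak2V617F library. With the term for high rRNA-row counts Rps19 was called higher, at 0.20 (edgeR adjusted p = 0.0259). Without the 3 libraries it was at 0.19. Rps14, the 5q- syndrome gene, had 731, 753.4 and 1055 CPM in Asxl1-/-Jak2V617F libraries and 805.3, 730.9 and 842.4 CPM in Jak2V617F libraries. Rps14 thus went against most members in being highest in the high rRNA library of its group. Sums of granulocyte markers were about an order of magnitude apart between these groups, and sums of erythroid markers also did not overlap, with the values given above. Some single erythroid markers did overlap, among them Hbb-bs, with 102 CPM in Asxl1-/-Jak2V617F 3 against 16.4 CPM in Jak2V617F 3. The share of raw counts in members, without TMM scaling, did not overlap either, at 5.85% to 6.55% in Asxl1-/-Jak2V617F and 6.78% to 7.49% in Jak2V617F. With library totals in place of TMM, 9 members were called lower, with the share of all genes not counted. The part of the markers in the share of raw counts was not tested.

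**Figure D4:**
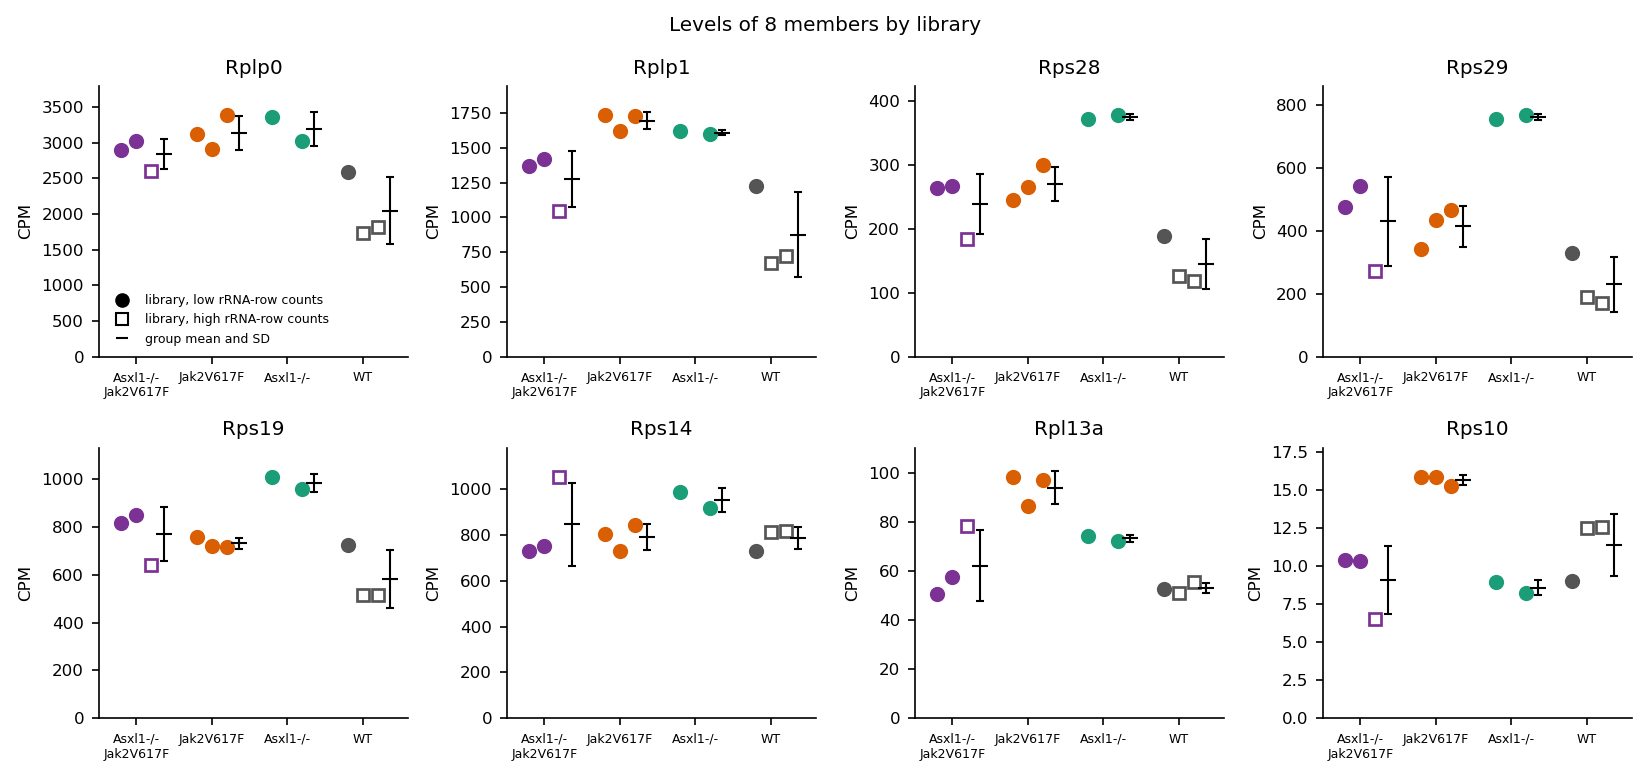
CPM of 8 members in each library by genotype, on linear axes from 0, with group means and SDs. Filled circles are libraries of low and open squares of high rRNA-row counts. Rplp0, Rplp1, Rps28, Rps29 and Rps19 are lowest in the open squares of WT, Rps14 is highest in the open square of Asxl1-/-Jak2V617F at 1055 CPM, and Rpl13a and Rps10 are highest in Jak2V617F.

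Asxl1-/-Jak2V617F against Asxl1-/-, which adds the kinase lesion to Asxl1 loss, gave 0 members higher and 0 lower in the edgeR test, against 3.31% and 2.22% of all tested genes. At an unadjusted p under 0.05, 0 were higher and 18 lower, and DESeq2 called 4 lower. Neither count has a share of all genes beside it, since that was not counted. The median log2 fold change was -0.26 for members and 0.00 for all genes, with 71 of 76 members below 0. Rps29 had 474.3, 543 and 272.2 CPM in Asxl1-/-Jak2V617F libraries, against 755.6 and 767.9 CPM in Asxl1-/- libraries, without overlap, and was not called. In the 8 libraries of low rRNA-row counts 2 members were lower, against 1.89% of all genes. They were Rps28 at -0.49 (edgeR adjusted p = 0.0282) and Rps16 at -0.30 (edgeR adjusted p = 0.0498), both named here after their values were seen. The term for high rRNA-row counts gave 3 lower, against 2.19% of all genes.

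The interaction asks whether the difference made by Asxl1 loss was the same with and without Jak2V617F. It is the log2 fold change of Asxl1-/-Jak2V617F over Jak2V617F minus that of Asxl1-/- over WT. In the edgeR test 53 of 76 members had a negative interaction and 0 a positive one, against 17.9% and 23.7% of all tested genes. All 76 values were below 0, with a median of -0.71, and the median over all genes was 0.10. Leaving out the 3 libraries gave 28 negative members, against 11.5% of all genes, with a median of -0.40. The term for high rRNA-row counts gave 30, against 12.1% of all genes. A term for Y-linked reads gave 12, with the share of all genes not counted. Leaving out Asxl1-/- replicate 1 left 27.

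Among the members with the smallest adjusted p for the interaction were Rps28, Rpl13a, Rpl37a, Rps16 and Rpl35. Rps28 had an interaction of -1.55 ± 0.28 (edgeR adjusted p = 0.00167), and -1.04 without the 3 libraries (edgeR adjusted p = 0.00146). Rpl13a had -1.06 ± 0.20 (edgeR adjusted p = 0.00173), and -1.30 without them (edgeR adjusted p = 0.00072). These values arose differently. Rps28 had no call between Asxl1-/-Jak2V617F and Jak2V617F and was higher in Asxl1-/- than in WT, whereas Rpl13a was lower in Asxl1-/-Jak2V617F than in Jak2V617F and higher, by 0.46 ± 0.15, in Asxl1-/- than in WT (edgeR adjusted p = 0.0433), a call lost without the 3 libraries (0.51, edgeR adjusted p = 0.0681).

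The other 3 had interactions from -0.64 to -0.73. Rpl37a, a zinc-binding protein of the large subunit, had 582, 562.9 and 570.1 CPM in Asxl1-/-Jak2V617F libraries, against 544, 551.6 and 652.1 CPM in Jak2V617F libraries. In the same gene, Asxl1-/- libraries had 718.4 and 747.3 CPM, against 506.7, 417.8 and 428.4 CPM in WT libraries. Beside the kinase lesion the groups overlapped, without a call, and without it Asxl1-/- lay above WT in every library. The interaction of Rpl37a was -0.73 (edgeR adjusted p = 0.00246). These 5 kept the call in the 8 libraries.

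By subunit, 34 of 46 large-subunit and 16 of 30 small-subunit members were higher in Jak2V617F over WT, with median log2 fold changes of 0.51 and 0.38. In Asxl1-/- over WT the counts were 35 of 46 and 21 of 30, with medians of 0.69 and 0.59. In Asxl1-/-Jak2V617F over WT they were 17 of 46 and 10 of 30, with medians of 0.42 and 0.34. Over all tested genes 24.4%, 11.3% and 8.3% were higher, in the same order. With the term for high rRNA-row counts, 32, 48 and 34 of all members were higher, against 20.5%, 5.01% and 7.02% of all genes. Among libraries of low rRNA-row counts, where WT is 1 library, median log2 ratios to WT over all members were 0.18, 0.37 and 0.16. These values were not split by subunit. No test of one subunit against the other was made.

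Among the stalk proteins, Rplp0 and Rplp1 were called higher in both single lesions over WT and Rplp2 in neither. Rplp0 lost both calls when the 3 libraries were left out, with 0.32 in Jak2V617F (edgeR adjusted p = 0.0536) and 0.34 in Asxl1-/- (edgeR adjusted p = 0.138). Rplp0 had 2894, 3021 and 2606 CPM in Asxl1-/-Jak2V617F libraries, 3128, 2911 and 3388 in Jak2V617F libraries, 3359 and 3024 in Asxl1-/- libraries, and 2583, 1733 and 1815 in WT libraries. All libraries with a lesion were above all WT libraries, Asxl1-/-Jak2V617F 3 by the least. Rplp2 had log2 fold changes of 0.80 ± 0.33 in Jak2V617F (edgeR adjusted p = 0.0694) and 0.97 ± 0.37 in Asxl1-/- over WT (edgeR adjusted p = 0.0881), with wide errors. Its WT libraries were at 666.5, 294.1 and 283.5 CPM.

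Rpl5 and Rpl11, the proteins of the 5S particle, were both higher in each of the 3 comparisons with WT. Rpl5 had log2 fold changes of 0.38 ± 0.10 in Jak2V617F (edgeR adjusted p = 0.00623), 0.41 ± 0.11 in Asxl1-/- (edgeR adjusted p = 0.0213) and 0.33 ± 0.10 in Asxl1-/-Jak2V617F (edgeR adjusted p = 0.0424). None of these was called without the 3 libraries. Rpl11 had 0.39 ± 0.13 (edgeR adjusted p = 0.0232), 0.74 ± 0.14 (edgeR adjusted p = 0.00573) and 0.44 ± 0.13 (edgeR adjusted p = 0.0395), and of these the rise in Asxl1-/- was still called without them, at 0.48 (edgeR adjusted p = 0.0489).

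Rps14 and Rps19 differed from one another in the main fit of 11 libraries. Rps14 was at 989.3 and 916.4 CPM in Asxl1-/- libraries and at 729.5, 811.9 and 816.8 CPM in WT libraries. It was called in none of the 6 comparisons of that fit. Leaving out the 3 libraries, its interaction was called, at -0.51 (edgeR adjusted p = 0.0243). Its log2 fold change was 0.01 ± 0.13 in Jak2V617F over WT (edgeR adjusted p = 0.944) and 0.28 ± 0.15 in Asxl1-/- over WT (edgeR adjusted p = 0.193). Without the 3 libraries these values were 0.16 and 0.42, beside 0.06 and 0.48 for Rps19. With the term for high rRNA-row counts, Rps14 was called in Asxl1-/- over WT at 0.50 (edgeR adjusted p = 0.0243). Rps19 was called there too, at 0.48 (edgeR adjusted p = 0.0104). Rps19 was at 1011 and 958.7 CPM in Asxl1-/- libraries and at 722.6, 514.1 and 513.6 CPM in WT libraries. It rose by 0.75 ± 0.16 in Asxl1-/- (edgeR adjusted p = 0.00778), also without the 3 libraries (0.48, edgeR adjusted p = 0.0418), and was at 0.33 ± 0.14 in Jak2V617F over WT without a call (edgeR adjusted p = 0.0693). Of the 21 members whose human gene is mutated in Diamond-Blackfan anaemia, 15 were higher in Jak2V617F, 17 in Asxl1-/- and 7 in Asxl1-/-Jak2V617F over WT, with medians of 0.42, 0.74 and 0.40. Over all 76 members the counts were 50, 56 and 27, and over all tested genes 24.4%, 11.3% and 8.3% were higher. Without the 3 libraries these counts were 4, 8 and 0 of 21, against 19, 13 and 0 of 76 members and 15.3%, 0.895% and 0.239% of all genes.

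The X-linked members were Rps4x, Rpl10, Rpl39 and Rpl36a. Rpl10, which joins the large subunit last and is mutated in human T-cell leukaemia, had a log2 fold change of 0.50 ± 0.12 in Jak2V617F over WT (edgeR adjusted p = 0.00338) and 0.51 ± 0.13 in Asxl1-/- over WT (edgeR adjusted p = 0.0173). Rps4x had 0.27 ± 0.11 (edgeR adjusted p = 0.053) and 0.49 ± 0.12 (edgeR adjusted p = 0.0141). Leaving out the 3 libraries, Rpl10 was still called in Jak2V617F at 0.27 (edgeR adjusted p = 0.0367), whereas neither value in Asxl1-/- was, with 0.28 for Rpl10 (edgeR adjusted p = 0.121) and 0.30 for Rps4x (edgeR adjusted p = 0.139). Rpl39, which lines the exit tunnel for the new protein, spread most between WT libraries, with 382.9, 121.3 and 133.6 CPM, and was at 579 and 628.1 CPM in Asxl1-/- libraries. Its log2 fold change of 0.94 ± 0.52 in Jak2V617F over WT was not called (edgeR adjusted p = 0.162), nor was that in Asxl1-/- (edgeR adjusted p = 0.0924).

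Of the remaining members chosen for their roles, Rpsa, also known as a laminin receptor precursor, Rpl3, at the peptidyl transferase centre, and Rpl22, an RNA-binding protein lost in some leukaemias, were called higher in both single lesions over WT. Rpl3 had 0.43 ± 0.10 (edgeR adjusted p = 0.00286) and 0.37 ± 0.11 (edgeR adjusted p = 0.0307). Rpsa had 0.37 ± 0.14 (edgeR adjusted p = 0.0383) and 0.53 ± 0.15 (edgeR adjusted p = 0.028). Rpl22 had 0.51 ± 0.18 (edgeR adjusted p = 0.0295) and 0.74 ± 0.19 (edgeR adjusted p = 0.021). Only Rpl3 in Jak2V617F was still called among these 6 values without the 3 libraries, at 0.33 (edgeR adjusted p = 0.0471).

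Rps27 and Rps27a varied within groups. Rps27, a zinc-finger protein, had 344.6, 456.4 and 545.8 CPM in Jak2V617F libraries, against 241.7, 280.6 and 254.1 CPM in WT libraries. It was higher in Jak2V617F by 0.79 ± 0.20 (edgeR adjusted p = 0.00615), and by 0.93 without the 3 libraries, where it was not called (edgeR adjusted p = 0.125). Its Asxl1-/- libraries were far apart, at 504.1 and 298.4 CPM. Rps27a, made as a fusion with ubiquitin, had 313.3, 745.1 and 316.5 CPM in Asxl1-/-Jak2V617F libraries, 744.1, 619 and 395 in Jak2V617F, 701.3 and 419.4 in Asxl1-/-, and 451.9, 245.1 and 395.2 in WT. It was called in no comparison.

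Core components outside the name rule lay near the members. Rack1 had 1782, 1612 and 1827 CPM in Jak2V617F libraries and 1795 and 1701 CPM in Asxl1-/- libraries, against 1425, 1015 and 1068 CPM in WT libraries. It was higher by 0.57 ± 0.12 in Jak2V617F (edgeR adjusted p = 0.00206) and by 0.58 ± 0.14 in Asxl1-/- (edgeR adjusted p = 0.013). Fau was higher in Asxl1-/- by 0.65 ± 0.15 (edgeR adjusted p = 0.0108) and had 0.26 ± 0.13 in Jak2V617F (edgeR adjusted p = 0.115), a pair of effects not compared directly. Leaving out the 3 libraries ended the calls in Asxl1-/-, with 0.33 for Rack1 (edgeR adjusted p = 0.117) and 0.39 for Fau (edgeR adjusted p = 0.0552), while Rack1 in Jak2V617F kept its call at 0.33 (edgeR adjusted p = 0.034). Rps3a1 was called in none of these and had one low library, Jak2V617F 3 at 919.4 CPM.

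Some paralogues moved apart from the members in Asxl1-/-Jak2V617F over Jak2V617F. Rps4l, a mouse paralogue of Rps4x, had 33.7, 12.3 and 10.7 CPM in Asxl1-/-Jak2V617F libraries, against 1.66, 4.61 and 4.43 CPM in Jak2V617F libraries, a log2 fold change of 2.40 ± 0.51 (edgeR adjusted p = 0.0037). It also had 29.3 and 31.6 CPM in Asxl1-/- libraries, against 6.76, 5.80 and 9.81 CPM in WT libraries. Rpl36al, a paralogue of Rpl36a, had 5.38, 5.03 and 4.15 CPM in Asxl1-/-Jak2V617F libraries, against 2.79, 1.52 and 3.27 CPM in Jak2V617F libraries, a log2 fold change of 0.94 ± 0.33 (edgeR adjusted p = 0.0366). Rpl39l, known from male germ cells, had 4.09, 0.629 and 0.793 CPM in Asxl1-/-Jak2V617F libraries, against 0.536, 0.0490 and 0.105 CPM in Jak2V617F libraries. Its log2 fold change of 2.99 ± 0.996 (edgeR adjusted p = 0.0315) rests on very few reads.

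Other paralogues were higher over WT. Rpl22l1, the paralogue of Rpl22, had 101.8, 78.01 and 77.95 CPM in Jak2V617F libraries, against 54.1, 34.7 and 34.9 CPM in WT libraries, a log2 fold change of 1.06 ± 0.23 (edgeR adjusted p = 0.00326). Rps27l, a p53 target and paralogue of Rps27, had 171.3, 164.5 and 189.1 CPM in Jak2V617F libraries, against 110.7, 89.3 and 95.5 CPM in WT libraries, a log2 fold change of 0.83 ± 0.09 (edgeR adjusted p = 1.43e-05). Both kept their call without the 3 libraries, at 0.70 each (edgeR adjusted p = 0.0183 and 0.000974).

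The mitochondrial ribosome, a separate machine with its own protein set, was tested beside the cytosolic one. Of 77 tested Mrpl and Mrps genes, 67 were higher and 2 lower in Jak2V617F over WT, with a median log2 fold change of 0.58, and 47 and 1 without the 3 libraries, with a median of 0.49. Mrpl38 rose by 1.19 ± 0.13 (edgeR adjusted p = 1.44e-05) and Mrps7 by 0.81 ± 0.09 (edgeR adjusted p = 1.53e-05), whereas Mrpl33 was at -1.03 ± 0.11 (edgeR adjusted p = 2e-05). In Asxl1-/- over WT 53 were higher and 0 lower, and 3 and 0 without the 3 libraries. In Asxl1-/-Jak2V617F over Jak2V617F, 24 were lower and 1, Mrpl33, higher, with a median of -0.19. Mrpl52 was at -1.11 ± 0.23 there (edgeR adjusted p = 0.00297). Over all tested genes in the fit of 11 libraries, 24.4% were higher and 29.2% lower in Jak2V617F over WT. The shares were 11.3% and 11.2% in Asxl1-/- over WT, and 24.5% and 19.8% in Asxl1-/-Jak2V617F over Jak2V617F. Counts without the 3 libraries, where WT is 1 library, are to be set beside the smaller shares called higher there, given above with the members.

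Other transcripts known to carry a TOP tract were listed as 17 genes, mostly of translation and growth and some of them non-coding. They gave 14 higher and 0 lower in Jak2V617F over WT, with a median of 0.45, and of 0.40 without the 3 libraries. Npm1, a nucleolar chaperone of ribosome assembly, rose by 0.99 ± 0.13 (edgeR adjusted p = 5.03e-05) and Eef1d, an elongation factor subunit, by 0.87 ± 0.09 (edgeR adjusted p = 1.38e-05). In Asxl1-/- over WT 12 were higher, among them Eif3h at 0.55 ± 0.09 (edgeR adjusted p = 0.00303). In Asxl1-/-Jak2V617F over Jak2V617F 6 were lower and 0 higher, with a median of -0.22. Among them were Eef1d at -0.35 ± 0.09 (edgeR adjusted p = 0.0082) and the elongation factor Eef2 at -0.36 ± 0.12 (edgeR adjusted p = 0.027). Over all tested genes 24.4% were higher in Jak2V617F and 11.3% in Asxl1-/- over WT. In Asxl1-/-Jak2V617F over Jak2V617F 19.8% of all tested genes were lower and 24.5% higher.

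Chaperones and importins that carry new ribosomal proteins gave 10 higher and 0 lower of 11 tested in Jak2V617F over WT. The shares over all tested genes were 24.4% and 29.2%. Heatr3, which serves Rpl5, rose by 1.01 ± 0.14 (edgeR adjusted p = 1e-04), Grwd1, which serves Rpl3, by 0.97 ± 0.12 (edgeR adjusted p = 4.22e-05), and the importin Ipo5 by 0.86 ± 0.09 (edgeR adjusted p = 1.39e-05). All 3 kept their call without the 3 libraries. In Asxl1-/-Jak2V617F over Jak2V617F, 5 were lower and 0 higher, with Heatr3 at -0.59 ± 0.14 (edgeR adjusted p = 0.00484) and Grwd1 at -0.53 ± 0.12 (edgeR adjusted p = 0.00355). There 19.8% of all tested genes were lower and 24.5% higher.

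Regulators of ribosomal protein supply, 10 genes, were mixed. In Jak2V617F over WT 5 were higher and 2 lower, against 24.4% and 29.2% of all tested genes. Larp1, which binds the TOP tract, rose by 0.60 ± 0.09 (edgeR adjusted p = 0.000189), and Trp53 by 0.85 ± 0.14 (edgeR adjusted p = 0.000284). Myc, a transcriptional driver of ribosome genes named here after its values were seen, was at 0.49 ± 0.23 (edgeR adjusted p = 0.104). Its lowest libraries were those of high rRNA-row counts, at 151.6 CPM in Asxl1-/-Jak2V617F 3 and 164.7 and 160.8 CPM in WT 2 and 3. In Asxl1-/-Jak2V617F over Jak2V617F, Mdm2 rose by 0.37 ± 0.09 (edgeR adjusted p = 0.00642) and Trp53 fell by 0.48 ± 0.14 on the log2 scale (edgeR adjusted p = 0.0127).

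**Figure D5:**
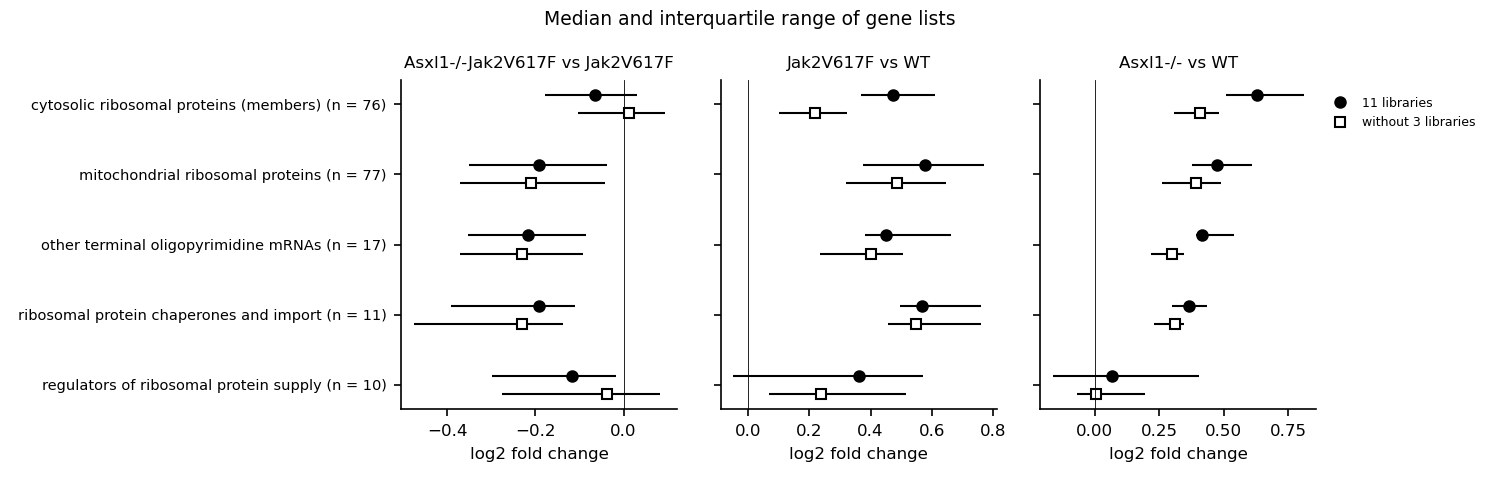
Median (symbol) and interquartile range (line) of the log2 fold changes of the members and of 4 gene lists, in 3 comparisons, from the fit of all 11 libraries (filled) and without the 3 libraries of high rRNA-row counts (open). In Asxl1-/-Jak2V617F over Jak2V617F the members sit at -0.06 and 0.01, and the mitochondrial ribosomal proteins at -0.19 and -0.21. In Jak2V617F over WT the members move from 0.47 to 0.22 when the 3 libraries are left out, while the mitochondrial ribosomal proteins move from 0.58 to 0.49.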

How the data were processed

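RNA sequencing counts of 11 mouse libraries were used, in 1 table of raw counts per Ensembl gene as deposited by the authors, with a gene length column in bases. Per the submitters' processing notes the tools were HISAT2 2.0.5, featureCounts 1.5.0-p3 and DESeq2 1.16.1 among others, with mm10. The sources used here do not give the strand setting, the treatment of multi-mapping reads or the annotation release. Counts were fitted with edgeR 4.0.16 in R 4.3.3 (filterByExpr by group, TMM scaling, robust quasi-likelihood test, 1 model of the 4 genotypes, Benjamini-Hochberg over 16262 tested genes, threshold 0.05). The SE is the log2 fold change divided by the root of F, and the common biological coefficient of variation was 19.7%. Replicates differed by more than counting noise in every pair. Same-numbered libraries of different groups did not deviate together, with correlations from -0.251 to 0.24 over 15 pairs, so the main fit has no block.

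Libraries were called high in rRNA-row counts above 0.005% of all counts, and male with Y-linked genes above 50 CPM. Both limits were set after seeing the values. Alternatives were DESeq2 1.42.0, other scalings and filters, the compared groups alone, a replicate block, a sex term, members summed with named pseudogene rows, and each library left out. Leaving out the 3 libraries of high rRNA-row counts, and a term for them, were chosen after seeing the data.

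The members and gene lists were chosen with earlier results of these data known. Named members were, for each comparison, up to 6 called members in each direction by fold change, for the interaction the 6 of smallest adjusted p, and 15 chosen by role. Up to 4 called genes of each list per comparison could be named. The highest and lowest 3 members per length and related genes outside the name rule were also named. Some genes that these rules name are not reported here. Any other member value was chosen after its values were seen. Scripts were tested on simulated counts.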

Additional observations from a re-analysis of the deposited data

Results flagged for a closer look

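The difference that Asxl1 loss made was not the same with and without Jak2V617F for the following genes, by the interaction term of the edgeR fit (log2 scale, all under an adjusted p of 0.05 over all tested genes). Among the members of smallest adjusted p the interaction was -1.55 for Rps28, -1.06 for Rpl13a, -0.73 for Rpl37a, -0.64 for Rps16 (unrounded -0.635) and -0.69 for Rpl35. Among members chosen by role it was -1.28 for Rplp1, -1.06 for Rps27, -0.81 for Rpl22, -0.79 for Rplp0, -0.68 for Rps19, -0.68 for Rpl11, -0.62 for Rpl10, -0.56 for Rpsa, -0.46 for Rpl5, -0.44 for Rps4x and -0.42 for Rpl3. Outside the name rule it was -1.42 for Rpl22l1, -0.87 for Rps27l, -0.83 for Rack1 and -0.64 for Fau.

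All of these values are negative. The contrast uses the WT libraries, 2 of which are of the high rRNA-row class, and both Asxl1-/- libraries, which are the ones with Y-linked reads. Without the 3 libraries of high rRNA-row counts the value was -1.04 for Rps28, -1.30 for Rpl13a, -0.70 for Rplp1 and -0.74 for Rps27l, each still called, and -0.29 for Rps19, -0.28 for Rpl5 and -0.33 for Rpl3, none of them called. Rpl37a, Rps16, Rpl35, Rack1 and Rpl22l1 also kept the call there, and Rplp0, Rpsa, Rps4x, Rpl10, Rpl11, Rpl22, Rps27 and Fau did not.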

How the results depend on the processing

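Counts of members called in the comparisons with WT depended on which libraries were used. Shares of all genes called were counted only for the main fit, the fit without the 3 libraries and the fit with a term for them. Other counts of calls below stand without such a share. Without the 3 libraries of high rRNA-row counts the calls higher were 19 in Jak2V617F, 13 in Asxl1-/- and 0 in Asxl1-/-Jak2V617F over WT, against 50, 56 and 27, the negative interactions were 28 against 53, and the WT share was 6.14% against 5.06%. Asxl1-/-Jak2V617F over Jak2V617F then gave 5 higher and 5 lower, and over Asxl1-/- 2 lower. With a term for those libraries there were 32 higher in Jak2V617F over WT, 6 higher over Jak2V617F, 3 lower over Asxl1-/- and 30 negative interactions. With a sex term 3 were higher in Asxl1-/- over WT, and 12 interactions were negative. Leaving out each library in turn gave 27 to 66 calls in Jak2V617F over WT (33 without Jak2V617F 3, 27 and 28 without WT 2 and WT 3), 7 to 67 in Asxl1-/- over WT (33 and 30 without WT 2 and WT 3), 2 to 61 in Asxl1-/-Jak2V617F over WT (5 without its replicate 1, 12 without either Asxl1-/- library), and 27 to 67 negative interactions (34 without Asxl1-/- 2, WT 2 or WT 3). It gave 0 to 2 higher and 2 to 5 lower over Jak2V617F, and 0 to 3 lower over Asxl1-/-.

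Library totals in place of TMM gave 5 higher in Asxl1-/-Jak2V617F over WT and 9 lower over Jak2V617F. The compared groups alone gave 6 for the first, and 1 higher and 5 lower for the second. DESeq2 gave 47 for the first, 1 higher and 4 lower for the second, and 4 lower over Asxl1-/-. Over Jak2V617F, the stricter filter gave 2 higher, summed pseudogene rows 2 higher and 1 lower. Over Asxl1-/-, no filter and the stricter filter gave 1 lower each. Adding pseudogene rows put the Asxl1-/- share at 7.26%. With the replicate block 2 members were higher in Asxl1-/-Jak2V617F over Jak2V617F, and it moved no other count of calls by over 1.5 times. The cause of these changes was not tested. Direction reversed for Rps14 in Jak2V617F over WT with no filter (-0.0012) and without Jak2V617F 3 (-0.022, libraries left out in turn giving up to 0.12). It also reversed in Asxl1-/-Jak2V617F over WT for Rps14 without replicate 3 (-0.084, and up to 0.21) and for Rps27a without replicate 2 (-0.18, and up to 0.55). Of 4070 values of named genes under alternatives, 3473 kept direction and call, 519 lost and 74 gained the call, and 4 reversed. Not among these are genes given mainly as levels, mostly members chosen by role in the comparisons with Jak2V617F and Asxl1-/-. They were left out after their values were seen. None was called in the main fit, and 62 of 1114 values changed sign, none past the threshold.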
